A study of Rattus norvegicus with 12 samples.

Results

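Transcripts of mitochondrial chaperones and proteases were measured in rat liver cells with and without arginine. The 10 genes are Lonp1, Clpp, Hspa9, Dnaja3, Grpel1, Hspd1, Hspe1, Trap1, Phb1 and Phb2. They were followed on every probe set whose array annotation gives 1 of them as its only symbol. That gave 12 of the 12777 probe sets with a single symbol, for 9 of the 10 genes. Both probe sets for Phb1 carry a second symbol and are not reported. Of the 12 probe sets, 11 passed the filter on low signals.

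Normal cells were WB-F344, a diploid epithelial line from the liver of a Fischer-344 rat (adult, male). Tumor cells were GP7TB, a line from clonal subpopulations of WB-F344 that was transformed by repeated exposure to N-methyl-N-Nitro-N-nitrosoguanidine. Each line was kept for 18 hours in a custom medium with serum that either held 0.168 g/l arginine (arginine-sufficient) or held no added arginine (arginine-deficient). Each of the 4 groups had 3 cultures from 3 paired experiments, each measured on 1 RAE230A array, 12 in all. Each cell type is a single line, so a difference between them is a difference between these lines.

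Most mitochondrial proteins are made in the cytosol and enter the organelle unfolded. Hspa9, the mitochondrial Hsp70, pulls them into the matrix. Dnaja3, a J-domain protein, and Grpel1, a nucleotide exchange factor, are helpers of Hspa9. The chaperonin of Hspd1 (Hsp60) and its lid Hspe1 (Hsp10) folds imported proteins, and Trap1 is the Hsp90 of the matrix. Lonp1 and Clpp degrade matrix proteins, Clpp as the proteolytic chamber of the ClpXP protease. Phb1 and Phb2 form prohibitin rings in the inner membrane, which bind a membrane protease. When proteins misfold in mitochondria, cells are known to raise several of these genes through the transcription factors ATF4, ATF5 and CHOP, the product of Ddit3.

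The genes lie in pairs at several places in the GRCr8 assembly. Lonp1 (chr9:1534581-1546908) and Clpp (chr9:1917305-1924706) are 370 kb apart, and Dnaja3 (chr10:11361168-11386599) and Trap1 (chr10:11971259-12005306) are 585 kb apart. Hspd1 and Hspe1 stand head to head on chromosome 9, with start sites 290 bases apart on opposite strands. Hspa9 is at chr18:26810004-26832958, Grpel1 at chr14:78517049-78522868 and Phb2 at chr4:159203948-159208561. For 9 of the 10 genes, Lonp1 being the exception, the RefSeq promoter table for GRCr8 gives the 250 bases before the start site. In these windows both strands were searched for 4 motifs: TGATGNAA, the composite site of C/EBP and ATF factors, TGACGTCA, the cAMP response element, the paired heat shock units GAANNTTC and TTCNNGAA, which can overlap each other, and the site of the factor NRF1.

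The windows of Hspa9 and Trap1 are shown because of their signals without arginine in tumor cells and their motifs. Hspa9 rose there, while Trap1 had lower signals that did not pass the test used below. Each window holds a motif of the ATF family that no other member's window holds. A link of these motifs to the signals was not tested. Capitals mark TGATGNAA in Hspa9 (chr18:26828399-26828648, minus strand), a motif in 3.4% of all 33469 windows. They mark TGACGTCA in Trap1 (chr10:11971009-11971258, plus strand), a motif in 1.59% of all windows. The gene record of Hspa9 reaches farther upstream than this start site, so the window lies inside the gene's outer limits. The same holds for the windows of Hspd1 and Clpp.
Hspa9: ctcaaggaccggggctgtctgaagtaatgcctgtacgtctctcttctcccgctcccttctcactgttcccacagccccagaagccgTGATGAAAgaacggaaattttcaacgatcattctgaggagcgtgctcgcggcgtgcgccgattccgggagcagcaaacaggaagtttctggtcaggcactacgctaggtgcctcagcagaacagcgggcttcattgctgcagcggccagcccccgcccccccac
Trap1: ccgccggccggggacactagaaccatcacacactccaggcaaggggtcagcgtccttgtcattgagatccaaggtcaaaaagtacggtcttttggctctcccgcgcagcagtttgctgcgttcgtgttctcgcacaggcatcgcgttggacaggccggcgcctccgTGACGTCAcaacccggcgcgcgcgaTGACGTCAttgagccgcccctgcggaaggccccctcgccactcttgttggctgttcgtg

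The motif of Hspa9 begins 164 bases before the start site, and those of Trap1 begin 84 and 59 bases before it. Hspd1 and Hspe1 share 1 stretch of overlapping heat shock units at chr9:64084256-64084285, given here on the strand of each gene with the units in capitals.
Hspd1: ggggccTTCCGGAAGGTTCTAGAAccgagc
Hspe1: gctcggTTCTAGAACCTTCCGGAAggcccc

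A heat shock unit stood in 5 of the 9 windows (Hspa9, Hspd1, Hspe1, Clpp and Phb1), against 13.5% of all windows. The shared stretch of Hspd1 and Hspe1 is counted in both of their windows. The NRF1 motif stood in 3 (Dnaja3, Grpel1 and Phb1), against 3.75%. A match is a run of letters in these windows and was not tested as a binding site.

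Marker transcripts were checked first, against the signal that the highest 54% of an array exceeded (146 to 191). Krt8 and Krt7, of epithelial cells, were over it on all 12 arrays, and the hepatocyte genes Alb, Apoa1, Ttr, Serpina1, Cps1 and Hnf4a were over it on none of the normal arrays and on at most 2 of the 6 tumor arrays. Krt18, Krt19, Epcam and the endothelial and leukocyte markers were below it on all arrays, and of the stellate cell and fibroblast markers Acta2 and Col1a1 were over it on all, Des on 5 of 6 normal and 2 of 6 tumor arrays and Pdgfrb on none. Signals of Krt7 ran from 3199 to 6321 in normal and from 176 to 382 in tumor cells. Those of Col1a1 ran from 15113 to 28460 and from 212 to 592, and those of Acta2 from 1083 to 2633 and from 302.5 to 598. For Krt8 they were 2159 to 7042 in normal and 5692 to 11223 in tumor cells, which overlapped. Median signals ran from 173 to 226 over the arrays. The 3' to 5' signal ratio of Gapdh, which reflects RNA quality, ran from 0.998 to 1.38. It was higher in the arginine-deficient partner in 6 of 6 pairs. The ratio of Actb ran from 1 to 1.63 and was higher in that partner in 2 of 6 pairs. These were experiment 1 of normal cells (1.1 with and 1.41 without arginine) and experiment 3 of tumor cells (1.01 and 1.63). The part of RNA quality in the results below was not tested.

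In tumor cells the matrix protease Lonp1 and the import motor Hspa9 rose without arginine. Lonp1 rose by 1.53 ± 0.18 (log2 change ± SE, n = 3 arrays per group), a 2.89-fold change with an adjusted p of 0.00146 in limma over the 9745 probe sets tested. Hspa9 rose by 1.13 ± 0.18, or 2.19-fold, on probe set 1388851_at (adjusted p = 0.0102). These were 2 of the 11 tested probe sets of the group, and 0 fell, where 0.965% of all probe sets were called higher. The median log2 change of the 11 was 0.28, against -0.05 over all probe sets. Of the 11, 9 were above 0, as were 44.4% of all probe sets. With 1 probe set per gene, 7 of 9 genes were above 0. Lower signal of a transcript per cell and fewer cells holding it cannot be told apart in these cultures.

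The signals of Lonp1 in arginine-sufficient tumor cells were 1421 in experiment 1, 1006 in experiment 2 and 1285 in experiment 3. In arginine-deficient tumor cells they were 3955, 3712 and 3023 in the same order. The groups did not overlap, which held for 9.69% of all probe sets in this direction, and all 9 ratios between arrays of these groups were at least 2-fold. A ratio of 2-fold or more in at least 6 of 9 was seen for 1.08% of all probe sets. The call was kept without any 1 of the 12 arrays, with log2 changes of 1.39 to 1.65, but without both tumor arrays of experiment 2 the value was 1.36 (adjusted p = 0.0732). The arrays of experiment 2 of tumor cells are those whose run records note handling without trypsin, where experiments 1 and 3 note trypsin, and the part of handling in the result was not tested. Within chip lots of tumor arrays, the change of Lonp1 was 1.31 in the lot with 2 arrays of each group and 1.97 in the lot with 1 of each, from different experiments.

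On the Hspa9 probe set 1388851_at, the signals in tumor cells were 2329, 2058 and 2509.9 with arginine and 5713, 4859 and 4533 without it, in experiments 1 to 3. The groups did not overlap, and 6 of the 9 ratios were at least 2-fold. Its call was lost without the arginine-sufficient array of experiment 2 (1.05, adjusted p = 0.0592) and likewise without its arginine-deficient partner (1.15, adjusted p = 0.0534). It was also lost without both arrays of experiment 1 (1.05, adjusted p = 0.076) or of experiment 2 (1.07, adjusted p = 0.215).

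A second probe set of Hspa9, 1370690_at, gave tumor signals of 1111, 905.5 and 935 with arginine and 2953, 2019.7 and 1562 without it. These groups did not overlap either, and the log2 change of 1.10 ± 0.30 had an adjusted p of 0.0802, or 0.00215 with the experiment as a block. The remaining probe set, 1389930_at, had signals of 128 to 265 on all arrays, close to the filter, and a change in tumor cells of 0.092 ± 0.25 (adjusted p = 0.916). The 3 probe sets of Hspa9 thus did not give the same value, and on 1389930_at the groups overlapped in both cell types. The second probe set of Lonp1, 1375802_at, had signals of 3.7 to 19.1 and was never over the filter.

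**Figure D1:**
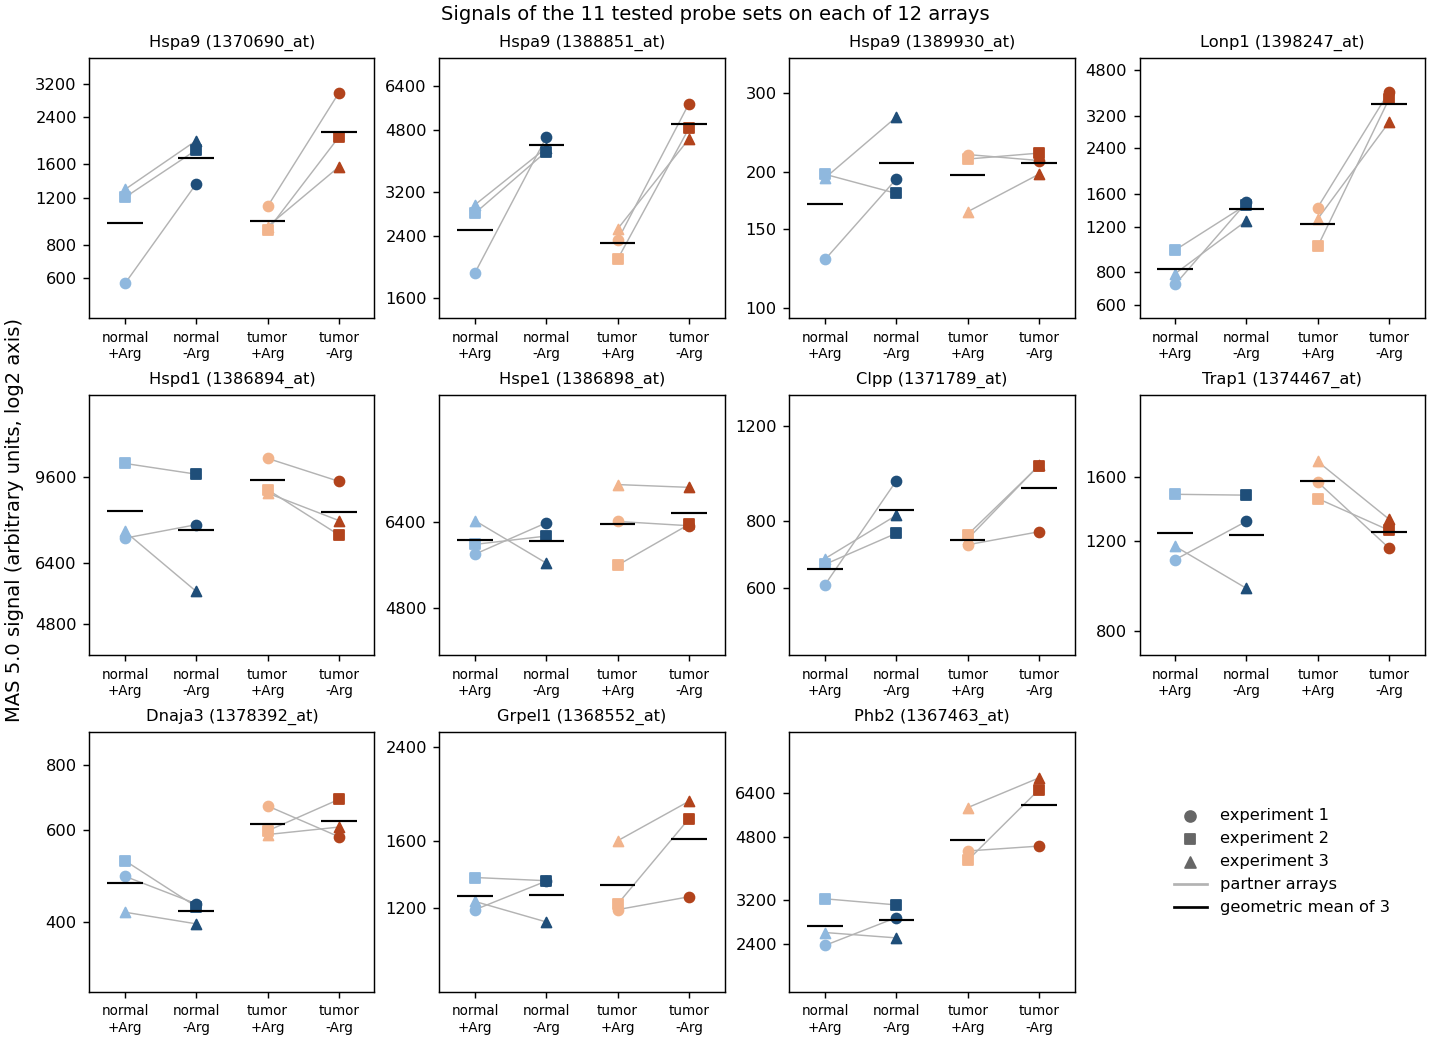
Signals of the 11 tested probe sets on a log2 axis, with 1 point per array, the symbol giving the experiment, grey lines joining partner arrays and black bars the geometric mean of 3 arrays. For Lonp1 and the Hspa9 probe sets 1388851_at and 1370690_at every arginine-deficient array lies above every arginine-sufficient array of the same cell type, and for Phb2 every tumor array lies above every normal array.

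In normal cells Lonp1 and Hspa9 on 1388851_at and 1370690_at had higher signals without arginine in each experiment, and no member passed the test. This 0 of 11 compares with 0.133% of all probe sets called higher, and 4 of the 11 were higher at an unadjusted p under 0.05, as were 4.07% of all probe sets. Lonp1 read 719, 975 and 791.5 with arginine and 1487, 1458 and 1264 without it, a log2 change of 0.77 ± 0.18 (adjusted p = 0.155). Hspa9 on 1388851_at read 1885, 2786 and 2945 with arginine and 4589, 4176 and 4277 without it, a change of 0.80 ± 0.18 (adjusted p = 0.122). On 1370690_at it read 573, 1202 and 1287 with and 1352, 1809 and 1961 without arginine (0.81 ± 0.30, adjusted p = 0.402). Leaving out its arginine-sufficient array of experiment 1 gave a change of 0.439. On 1389930_at Hspa9 differed by 0.30 ± 0.25 (adjusted p = 0.759), with a lower signal without arginine in experiment 2. For Lonp1, 1388851_at and 1370690_at the groups did not overlap, which 6.18% of all probe sets showed in this direction.

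With the experiment as a block, which removes what partner arrays share, these 3 probe sets passed in normal cells. The adjusted p was then 0.0261 for Lonp1 and 0.0244 and 0.0315 for Hspa9, in a fit that called 1.39% of all probe sets higher. In tumor cells the same fit called the same 3 probe sets, and 4.79% of all probe sets higher. Within normal cells the changes were largest in experiment 1, at 1.05 for Lonp1, 1.28 for Hspa9 on 1388851_at and 1.24 on 1370690_at, and 0.54 to 0.68 in the other two. The normal arrays were scanned on 3 days, of which 1 held only the arginine-sufficient array of experiment 2. Within the day that held experiment 3 the change of Lonp1 was 0.68, and within the day that held experiment 1 and an array of experiment 2 it was 1.03. The 2-fold ratios of Lonp1 in normal cells numbered 2 of 9, and a count of at least 6 was reached by 0.77% of all probe sets.

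Over both cell types together, Lonp1 rose by 1.15 ± 0.13 (adjusted p = 0.000513) and Hspa9 by 0.97 ± 0.13 on 1388851_at (adjusted p = 0.00135) and 0.96 ± 0.21 on 1370690_at (adjusted p = 0.0293). These were 3 of the 11 probe sets, where 1.6% of all were called higher, and none fell. The first 2 calls were kept without any single array. That on 1370690_at was lost without the normal arginine-deficient array of experiment 3, the tumor arginine-sufficient array of experiment 2 or 3, or the tumor arginine-deficient array of experiment 1 or 2 (adjusted p up to 0.0831). The study had itself picked Lonp1 and Hspa9 in tumor cells from these same arrays, so their choice here is not independent of their direction.

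The response of Lonp1 was larger in tumor than in normal cells by 0.76 ± 0.26, at an unadjusted p of 0.011. It did not pass adjustment over all probe sets (adjusted p = 0.824, or 0.163 with the experiment as a block). For Hspa9 the difference was 0.33 ± 0.25 on 1388851_at and 0.29 ± 0.42 on 1370690_at. Leaving out single arrays moved these differences to between 0.206 and 0.528 and between 0.0464 and 0.663, the highest of each without the arginine-sufficient normal array of experiment 1. The lowest was without the arginine-sufficient normal array of experiment 3 on 1388851_at and without the arginine-deficient tumor array of experiment 1 on 1370690_at. No member was called, as was 0% of all probe sets, while 5.64% had an unadjusted p under 0.05 and 0.0513% were called with the block.

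**Figure D2:**
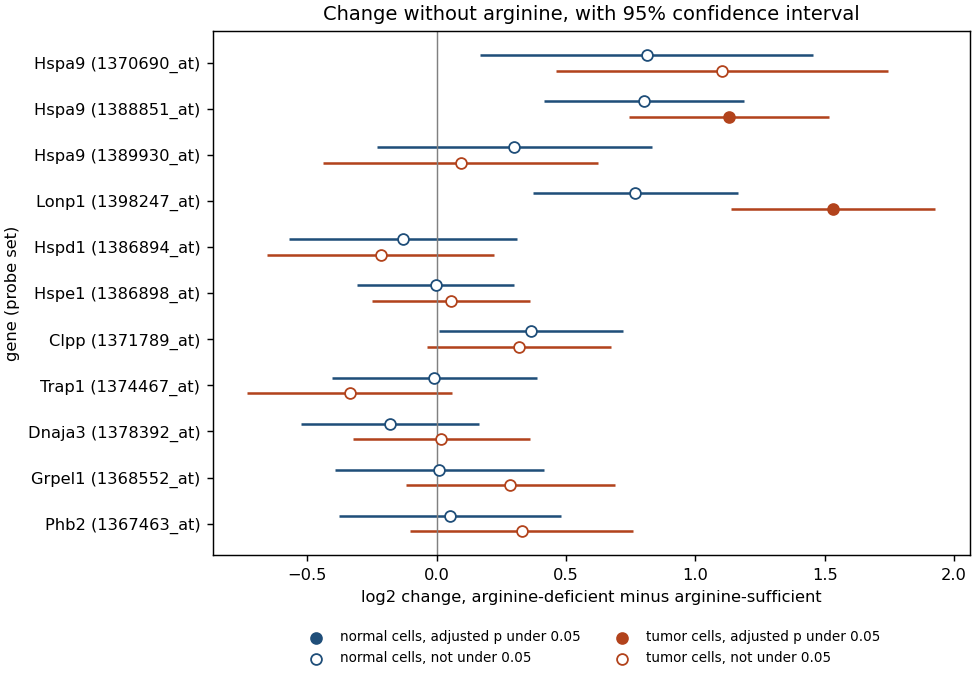
Fitted log2 change without arginine for each tested probe set in normal and tumor cells, with the 95% confidence interval as a line and a filled point where the adjusted p is under 0.05. The filled points are Lonp1 (1.53) and Hspa9 on 1388851_at (1.13) in tumor cells. The intervals of Hspd1, Hspe1, Trap1, Dnaja3, Grpel1, Phb2 and Hspa9 on 1389930_at include 0 in both cell types.

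Clpp, the other matrix protease, had smaller differences, which varied between experiments (0.19 to 0.64 in normal and 0.080 to 0.45 in tumor cells, as log2 ratios of partner arrays). Its signals were 610, 665 and 682 with arginine and 949.5, 759 and 819.5 without it in normal cells, and 723, 754 and 741 with and 764, 1012 and 1014 without it in tumor cells. The groups did not overlap in either cell type, as for 6.18% of all probe sets in normal and 9.69% in tumor cells in this direction. Clpp was higher in 6 of 6 pairs, as were 6.96% of all probe sets. The log2 change in normal cells was 0.37 ± 0.17 (adjusted p = 0.515). That in tumor cells was 0.32 ± 0.17 (adjusted p = 0.386). Their mean of 0.34 ± 0.12 had an adjusted p of 0.132, or 0.0472 with the experiment as a block, in a fit that called 6.1% of all probe sets higher.

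The chaperonin pair, over the filter on every array, gave no call. Hspd1 read 5596 to 10244 and Hspe1 5537 to 7252 over the 12 arrays. Without arginine Hspd1 differed by -0.13 ± 0.20 in normal and -0.22 ± 0.20 in tumor cells, with 95% confidence intervals of -0.57 to 0.31 and -0.66 to 0.22. The log2 ratios of partner arrays for Hspd1 were -0.41 to 0.092 in normal and -0.31 to -0.16 in tumor cells. Hspe1 differed by -0.0044 ± 0.14 and 0.054 ± 0.14, with intervals of -0.31 to 0.30 and -0.25 to 0.36. For these genes a change as large as that of Lonp1 in tumor cells thus lies outside the interval. RefSeq lists 20 pseudogenes of Hspd1 by symbol, 2 of Hspa9, 3 of Phb2 and 1 each of Hspe1 and Dnaja3, and the probes were not checked against them.

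Trap1, the matrix Hsp90, had lower signals without arginine in tumor cells (log2 ratios of partner arrays from -0.43 to -0.21) and did not pass the test. Its tumor signals were 1562, 1450.2 and 1713.5 with arginine and 1161, 1257 and 1322 without it, so that the groups did not overlap, as for 13.6% of all probe sets in this direction. The log2 change was -0.34 ± 0.18 (adjusted p = 0.417). In normal cells the signals were 1101, 1478 and 1169 with and 1309, 1472 and 968 without arginine, which overlapped (-0.0098 ± 0.18, adjusted p = 0.993).

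The helpers of Hspa9 and the prohibitin did not pass in either cell type. Grpel1 differed by 0.010 ± 0.19 in normal and 0.28 ± 0.19 in tumor cells, Dnaja3 by -0.18 ± 0.16 and 0.017 ± 0.16, and Phb2 by 0.051 ± 0.20 and 0.33 ± 0.20. As log2 ratios of partner arrays, Dnaja3 ran from -0.29 to -0.074 in normal and from -0.20 to 0.20 in tumor cells. In tumor cells Grpel1 ran from 0.080 to 0.53 and Phb2 from 0.045 to 0.66, both highest in experiment 2. For Grpel1 and Phb2 the signals of the tumor groups overlapped. Without the arginine-deficient tumor array of experiment 1 the fitted tumor changes were 0.464 for Grpel1 and 0.522 for Phb2. Without that of experiment 3 they were 0.168 and 0.203. In normal cells the members' median log2 change was 0.051, against -0.04 over all probe sets. There 7 of 11 were above 0, as were 44.6% of all probe sets. With 1 probe set per gene, 5 of 9 genes were above 0 and the median was 0.010.

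Between the cell types, Phb2 and Lonp1 were higher in tumor than in normal cells under both conditions, and Dnaja3 in arginine-deficient cells. With arginine, 2 of the 11 probe sets were called higher and 0 lower, where 16.4% of all were called higher. Without arginine 3 of 11 were called higher and 0 lower, against 19.5% of all. All normal arrays were scanned on other days and in other chip lots than the tumor arrays, so cell type, scan day and lot cannot be told apart in these levels.

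Phb2 read 2387, 3225 and 2593 in normal and 4395.5, 4135 and 5818 in tumor cells with arginine, a difference of 0.80 ± 0.20 (adjusted p = 0.00716). Without arginine it read 2856.5, 3100.5 and 2505 in normal and 4536, 6534 and 7052 in tumor cells, a difference of 1.08 ± 0.20 (adjusted p = 0.000848). The cell types did not overlap under either condition, which 24.5% of all probe sets showed in this direction with arginine and 24.5% without it. Both calls were kept without any single array.

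Lonp1 differed between the lines by 0.58 ± 0.18 with arginine (adjusted p = 0.0267) and by 1.34 ± 0.18 without it (adjusted p = 8.49e-05). The first call was lost without the normal array of experiment 1 or 3 or the tumor array of experiment 1 or 3 (0.468 to 0.548, adjusted p = 0.0742 to 0.1), and the second was kept without any array. Dnaja3 read 489, 524 and 417 in normal and 668, 598 and 588.5 in tumor cells with arginine (0.38 ± 0.16, adjusted p = 0.0823). Without arginine it read 433, 428 and 396.5 in normal and 583, 687 and 608 in tumor cells (0.58 ± 0.16, adjusted p = 0.0108). That call was lost without the tumor array of experiment 2 (0.507, adjusted p = 0.051). The other 8 probe sets, those of Hspa9, Hspd1, Hspe1, Clpp, Trap1 and Grpel1, were not called under either condition, with differences of -0.12 to 0.34. Without the arginine-deficient tumor array of experiment 1, Grpel1 was called higher in arginine-deficient tumor cells (0.524, adjusted p = 0.0344).

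**Figure D3:**
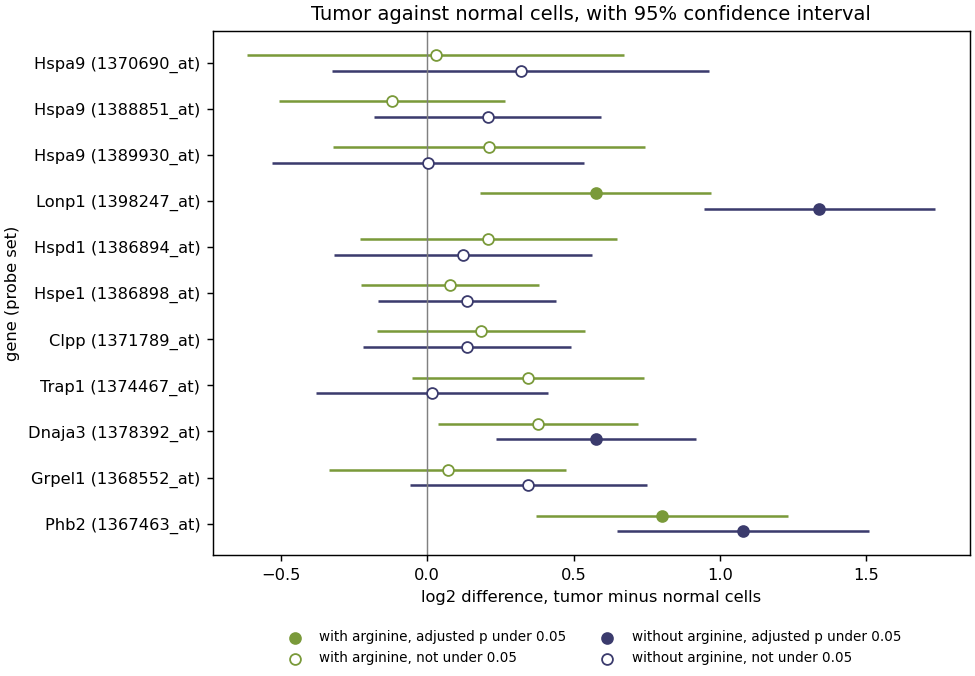
Fitted log2 difference between tumor and normal cells with and without arginine, with the 95% confidence interval as a line and a filled point where the adjusted p is under 0.05. The filled points are Phb2 (0.80 and 1.08), Lonp1 (0.58 and 1.34) and, without arginine, Dnaja3 (0.58).

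The members were next read beside other genes of the same compartments, on 1 probe set per gene and in the mean response of both cell types. Of 12 other mitochondrial proteases tested and 11 other mitochondrial chaperones, 0 were called, with medians of 0.016 in both lists. Clpx, the unfoldase that feeds Clpp, differed by 0.29 ± 0.14 (adjusted p = 0.271), named here outside the rule for these lists. Of 23 genes of mitochondrial protein import, 1 was called, Timm10, a chaperone of the intermembrane space (0.56 ± 0.10, adjusted p = 0.0115), and their median was -0.052. Of 14 other matrix enzymes, 18 ER chaperones and 18 cytosolic chaperones, 0 were called, with medians of -0.058, 0.041 and 0.018. With the experiment as a block, which called 14.7% of all probe sets in either direction, 1 protease, 4 import genes, 1 matrix enzyme, 2 ER chaperones and 2 cytosolic chaperones were called, the protease, the enzyme, 2 import genes and 1 cytosolic chaperone as lower. The same fit called 5 of the 9 transcription factors described next and 3 of the 9 member genes, all as higher. It called 6.1% of all probe sets higher.

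Of 9 transcription factors tested that are known to act in mitochondrial or amino acid stress, 4 rose and 0 fell. Their median was 0.47, and 1.6% of all probe sets were called higher in the mean response. Atf5 rose by 1.21 ± 0.19 (adjusted p = 0.00413), Atf4 by 0.76 ± 0.12 (adjusted p = 0.00438) and Atf3 by 2.86 ± 0.62 (adjusted p = 0.0268). Ddit3 was the other one called (1.36 ± 0.30, adjusted p = 0.0278), and is named because the count is small. The median of the 9 genes of the group itself was 0.15, with Lonp1 and Hspa9 as the 2 called.

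**Figure D4:**
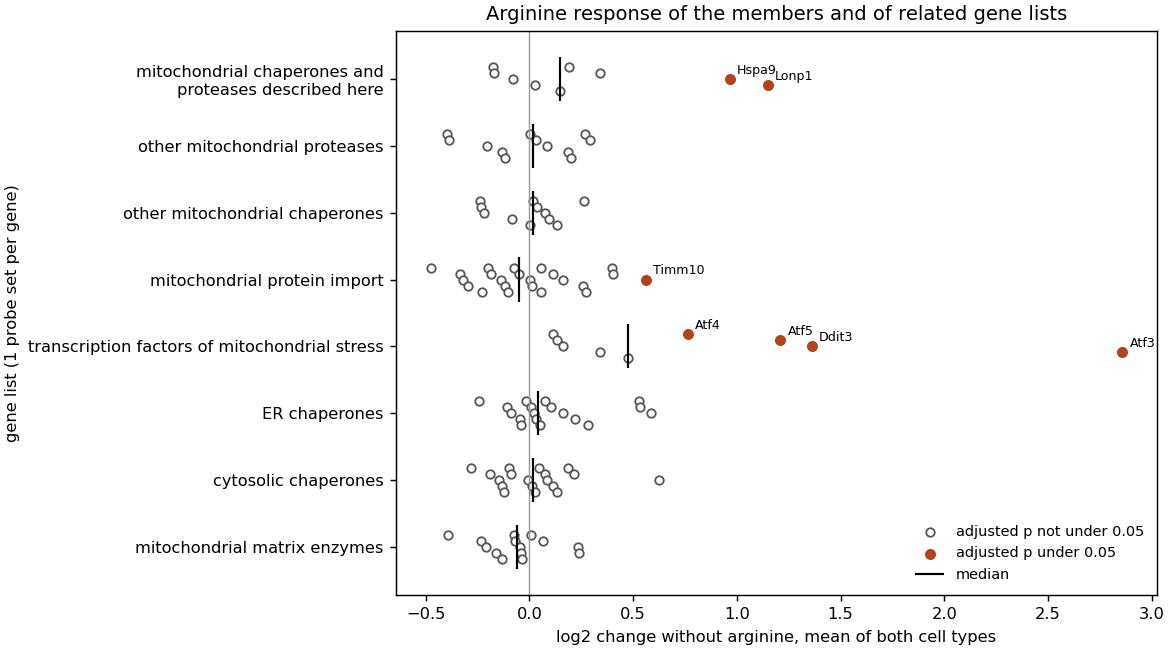
Log2 change without arginine as the mean of both cell types, with 1 point per gene, 1 row per gene list, filled points for an adjusted p under 0.05 and black bars for the median of a list. Lonp1 (1.15) and Hspa9 (0.97) stand to the right of the other members, and the other lists with filled points are those of import (Timm10) and of transcription factors (Atf3, Atf4, Atf5 and Ddit3).

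Profiles over the 12 arrays were compared after removing each cell type's mean log2 signal, as a description over arrays that share the arginine contrast. Among 7191 other genes, those most like Lonp1 were Aars1 (r = 0.961), Phgdh (0.961), Hspa9 (0.956), Wars1 (0.953) and Eif4ebp1 (0.948). Aars1 and Wars1 encode aminoacyl-tRNA synthetases, Phgdh the first enzyme of serine synthesis and Eif4ebp1 a repressor of translation. Those most like Hspd1 were Vcan (0.877), Klhl22 (0.87), Scrib (0.869), Trip13 (0.867) and Dhx9 (0.867), and none of these was called in the mean response. Among the members the closest profiles were those of Grpel1 and Phb2 (r = 0.969), ahead of Lonp1 and Hspa9 on 1388851_at (0.956) and of the Hspa9 probe sets 1388851_at and 1370690_at (0.922).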

How the data were processed

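RNA from 12 cultures was hybridised to 1 RAE230A array each. The deposited values are intensities, linear MAS 5.0 signals that came from the authors' use of Microarray Suite 5.0 and were scaled array by array to 1 mean. Such scaling removes a shift common to all transcripts. The deposited run records were read, as other text, for chip lot, scan day, sample code and handling.

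Values were floored at 1 and put on the log2 scale. The 9745 tested probe sets were those in the top 54% of signals on 3 or more of the 12 arrays. limma 3.58.1 in R 4.3.3 fitted 1 mean per group with an intensity trend (8 residual degrees of freedom), with Benjamini-Hochberg adjustment over all tested probe sets of each of 6 comparisons and a threshold of 0.05. Arrays give no counts, so their number limits the precision, and p-values measure the spread between cultures of 1 line.

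Arrays were paired into experiments from the title numbers, the study's sample table and neighbouring sample codes of the run records. With group means removed, partner arrays of normal cells had r = 0.38 to 0.43, and those of tumor cells 0.56, 0.037 and 0.42 in experiments 1 to 3. Arrays that were not partners had r = -0.28 to -0.16 in normal and -0.54 to 0.28 in tumor cells. The 0.28 was between experiment 3 with arginine and experiment 2 without it. For experiment 2 of tumor cells these values thus do not settle the pairing, on which the block rests. The block for the experiment leaves 4 residual degrees of freedom.

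The members, the related gene lists and the tests were chosen with earlier results of these data known. Every member was named, with up to 3 called genes of each related list and the 5 genes most like Lonp1 and Hspd1. The fit was tested on simulated data. Alternatives covered the filter, an offset of 16, quantile normalization, median centring, no trend, a plain linear model, the 6 compared arrays alone, blocks for experiment, scan day and lot, and leaving out arrays. Leaving out whole experiments and lot as a random block were added after seeing the data. Sequences were read with Python 3.11.15, and figures drawn with matplotlib 3.10.9, numpy 2.4.6 and pandas 2.3.3.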

Additional observations from a re-analysis of the deposited data

How the results depend on the processing

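Of 37 member values recomputed, the 10 that were called kept their direction under every setting, and 5 kept their call. Of the 27 not called, 7 were called under some setting and 8 changed sign. The 37 were all tested probe sets in the arginine responses of normal and of tumor cells. From the other comparisons they held every called value and a part of those not called. The counts are thus not shares of all values not called. The block for the experiment raised the count of members called in normal cells from 0 to 3, and over all probe sets from 16 to 235 in normal cells, from 186 to 1069 in tumor cells, from 288 to 1430 in the mean response and from 0 to 5 in the difference of responses. In tumor cells 2 members were called. This became 1 under a plain linear model, 1 without experiment 1 and 0 without experiment 2 of tumor cells, and 1 to 3 without any single array. Between the lines with arginine, 2 became 1 to 2 without any single array and 3 under the plain linear model, which added Dnaja3 (0.378, adjusted p = 0.0225). Under the plain linear model Hspa9 lost its call in tumor cells on 1388851_at (adjusted p = 0.0538) and in the mean response on 1370690_at (adjusted p = 0.106). Over all probe sets the settings gave 0 to 235 calls in normal cells, 10 to 1069 in tumor cells and 47 to 1430 in the mean response. The lot could not be fitted as a fixed block between the lines, since each lot held 1 line.

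Sign changes were of values near 0. In normal cells, quantile normalization gave -0.0074 for Grpel1 and -0.00055 for Phb2. Median centring gave 0.035 for Hspe1 and 0.029 for Trap1. The scan day block gave 0.074 for Trap1, and the lot block 0.032 for Hspd1 and 0.117 for Trap1. Without experiment 1, Grpel1 was at -0.073 and Phb2 at -0.053. Without experiment 3, Hspd1 was at 0.0094, Hspe1 at 0.096 and Trap1 at 0.122. In tumor cells, quantile normalization gave -0.066 for Hspe1. Without experiment 2, Hspe1 was at -0.017 and Dnaja3 at -0.074, and without experiment 3 Hspa9 on 1389930_at was at -0.00016. Leaving out single arrays gave, in normal cells, -0.321 to 0.079 for Hspd1, -0.048 to 0.050 for Hspe1, -0.139 to 0.164 for Trap1, -0.033 to 0.095 for Grpel1 and -0.042 to 0.176 for Phb2. In tumor cells it gave -0.043 to 0.167 for Hspa9 on 1389930_at, -0.046 to 0.149 for Hspe1 and -0.052 to 0.074 for Dnaja3. The cause of these changes was not tested. Signals near the filter, as those of Hspa9 on 1389930_at, limit what can be seen.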
